A study of Mus musculus with 4 samples.

Results

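Ubiquitin ligases choose the proteins that a muscle fibre degrades, and 10 of their genes linked to muscle wasting were followed in quadriceps muscle of normal mice and of mice with transgenes for NF90 and NF45: Fbxo32, Trim63, Fbxo30, Fbxo21, Fbxo31, Trim32, Cblb, Asb2, Asb5 and Trim54. They were chosen by symbol, and each was represented by the brightest array row paired with that symbol alone. All 10 were found among 22180 genes with such a row, and all 10 lay above the intensity filter that left 13308 genes for testing. The study compared 2 wild-type mice (WT) with 2 double transgenic mice, labelled NF90-NF45 dbTg (dbTg), 1 whole-transcript array per mouse. Replicate 1 was male and replicate 2 female in each group. The mice were 16 weeks of age, except WT replicate 1 at 17 to 18 weeks. What promoter drives each transgene is not stated in the sources used here. Levels are log2 RMA values, so a difference of 1 is a doubling, and precision is limited by the number of arrays. Levels of different genes are not compared, because each row has its own probes.

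A ubiquitin ligase (E3) brings a substrate to a conjugating enzyme (E2) that carries ubiquitin, and chains of ubiquitin send the substrate to the proteasome. F-box proteins are the substrate receptors of cullin 1 ligases, ASB proteins those of cullin 5 ligases, and TRIM and Cbl proteins carry their own RING domain. In wasting muscle, FoxO transcription factors are known to switch on Fbxo32 (atrogin-1) and Trim63 (MuRF1), glucocorticoids act on the same genes, and insulin signalling restrains them through Akt.

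The upstream sequences of the genes on which the results turn are shown because FoxO proteins, myogenic factors and the glucocorticoid receptor bind known short motifs. Windows from 250 bases before to 50 bases after an annotated start were read from RefSeq (GRCm38.p6) for 9 of the 10 genes, all but Fbxo32, 12 windows in all. Searched on both strands, the FoxO motif GTAAACA was found in 1 of them, that of Trim63, 194 bases before the start and on the opposite strand, and it was present in 3.65% of all 32851 windows. The E-box CAGCTG, the same on both strands, was found in 5 of the 12 windows and in 16.3% of all windows. It lay 72 bases before the start of Trim63, 113 before Trim54 and 107 before Trim32, and 22 bases after 1 of the 2 starts of Asb2 and 29 after 1 of the 3 starts of Asb5. The glucocorticoid receptor motif, AGAACA and TGTTCT with 3 free bases between them, was found with exactly these letters in 0 of the 12 windows and in 0.00913% of all. With up to 1 of its 12 fixed letters changed, a search added after the sequences were seen, it was found in 1 of the 12 windows and in 0.164% of all. That match lay 209 bases before the start of Trim63, directly before the FoxO match, and is left in lower case. Positions count to the match's first base on the gene's strand, no matches overlap, and a match is a run of letters, not a measured binding site. The 250 bases before the start are printed below for the genes of MuRF1 and MuRF3 and for both starts of Asb2, from 5′ to 3′ on the gene's strand, with matches in capitals.
Trim63, plus strand, chr4:134314870-134315119: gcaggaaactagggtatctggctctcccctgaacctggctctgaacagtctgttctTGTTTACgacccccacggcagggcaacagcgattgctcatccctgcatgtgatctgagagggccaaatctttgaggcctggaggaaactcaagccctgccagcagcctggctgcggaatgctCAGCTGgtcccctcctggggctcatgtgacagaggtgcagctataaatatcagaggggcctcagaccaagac
Trim54, plus strand, chr5:31116362-31116611: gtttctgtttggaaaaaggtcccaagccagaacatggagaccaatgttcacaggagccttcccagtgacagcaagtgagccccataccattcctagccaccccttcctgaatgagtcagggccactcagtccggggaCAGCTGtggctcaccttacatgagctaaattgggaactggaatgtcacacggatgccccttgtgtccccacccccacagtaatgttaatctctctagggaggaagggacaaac
Asb2, minus strand, chr12:103356002-103356251: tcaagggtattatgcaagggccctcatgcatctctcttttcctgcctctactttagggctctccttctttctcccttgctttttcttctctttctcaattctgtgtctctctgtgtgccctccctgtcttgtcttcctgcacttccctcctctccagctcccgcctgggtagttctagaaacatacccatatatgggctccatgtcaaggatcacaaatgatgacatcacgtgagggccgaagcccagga
Asb2, minus strand, chr12:103338391-103338640: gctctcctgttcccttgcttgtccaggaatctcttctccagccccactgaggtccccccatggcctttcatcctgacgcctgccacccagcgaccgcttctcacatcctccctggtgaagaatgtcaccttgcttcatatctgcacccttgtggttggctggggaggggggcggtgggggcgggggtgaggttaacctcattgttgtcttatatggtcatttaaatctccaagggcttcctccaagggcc
Between them, these printed stretches hold the FoxO match of Trim63 and the E-boxes of Trim63 and Trim54. The E-box of Asb2 lies past the start and is not printed.

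The libraries read as skeletal muscle. Ilf2, which encodes NF45, read 5.03 and 5.04 in WT and 10.36 and 10.16 in dbTg, so both transgenic arrays lay far above both WT arrays. The summed linear level of 12 fibre markers was 14021 and 14969 in WT and 14885 and 14177 in dbTg. Of the 12, 0 were called in limma (2 higher before adjustment, at p below 0.05). Over all tested genes 2.01% were called higher and 0.203% lower, and before adjustment 14.0% were higher and 4.64% lower. The summed linear level of the 14 macrophage and leukocyte markers on the array, of 16 listed, was 110 and 102 in WT and 664 and 565 in dbTg, and 7 of the 12 tested rose. None of the 14 read 0, and Cd3e and Cd8a, markers of T cells, lay under the filter. Of 6 endothelial markers 0 were called (3 lower before adjustment, at p below 0.05), and their summed level was 278 and 283 in WT and 155 and 197 in dbTg. The part of these cells in the results, and in each gene group described below, was not tested, and in whole muscle fewer cells of a type and less RNA per cell cannot be told apart.

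Of the 10 ligase genes, Asb2 fell in dbTg muscle and none of the others changed by the test. The threshold was a limma adjusted p of 0.05 over all 13308 tested genes. The 1 lower gene stands beside 0.203% of tested genes called lower, and the 0 higher genes beside 2.01% called higher. Before adjustment, at p below 0.05, 3 ligase genes were lower (Asb2, Trim54 and Asb5), against 4.64% of all tested genes, and 0 were higher, against 14.0%. Both dbTg arrays lay below both WT arrays for 4 genes (Asb2, Asb5, Trim54 and Fbxo31), where 16.3% of all tested genes did so. They lay above for 2 genes (Fbxo30 and Fbxo21), where 33.7% did so. The median log2 difference, dbTg minus WT, was -0.35 over the 10 genes and 0.089 over all tested genes. Fbxo32 and Trim63, the standard markers of wasting, did not pass the test in either direction, and their arrays overlapped.

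**Figure D1:**
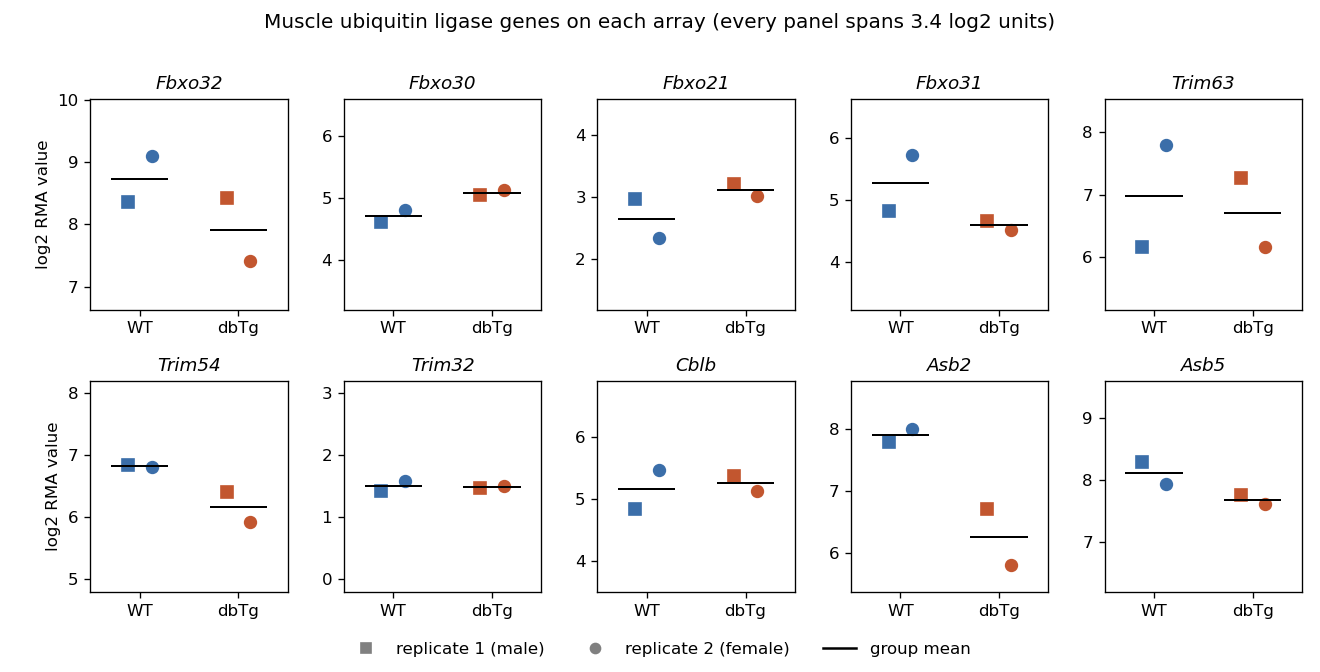
Log2 RMA value of each ligase gene on every array, in WT (blue) and dbTg (red), with squares for the male replicate 1, circles for the female replicate 2 and bars for group means. The groups lie apart for Asb2, from 7.79 and 8.00 in WT to 6.71 and 5.80 in dbTg, and they overlap for Fbxo32 and Trim63.

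Among the F-box genes, Fbxo32 encodes atrogin-1, which marks the myogenic factor MyoD and the translation factor eIF3f for degradation. It read 8.36 and 9.11 in WT and 8.43 and 7.41 in dbTg. The dbTg male lay between the WT arrays and the dbTg female below them, so the groups overlapped. The difference was -0.82 (SE 0.37, 95% interval -1.69 to 0.05, adjusted p = 0.291). It was -1.33 without dbTg replicate 1 and -0.31 without dbTg replicate 2, and not called in either case (adjusted p = 0.254 and 0.816). The male pair differed by 0.06 and the female pair by -1.70.

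Fbxo31, an F-box gene counted among the FoxO-dependent ligases of wasting muscle, read 4.82 and 5.73 in WT and 4.67 and 4.53 in dbTg. The groups did not overlap, but the 2 WT arrays lay 0.91 apart, and the difference was -0.68 (SE 0.30, 95% interval -1.40 to 0.05, adjusted p = 0.294). Without WT replicate 1 the difference was -1.13 and called (adjusted p = 0.0217), in a range of 0.0217 to 0.72 over 13 alternatives.

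The other F-box genes lay the opposite way. Fbxo30 encodes MUSA1, a ligase that BMP signalling holds down and that appears after denervation. It read 4.61 and 4.81 in WT and 5.04 and 5.13 in dbTg, so the groups lay apart by a small margin (0.37, SE 0.18, 95% interval -0.06 to 0.81, adjusted p = 0.332). Fbxo21, which encodes SMART, another FoxO-dependent ligase, read 2.97 and 2.33 in WT and 3.21 and 3.02 in dbTg. Its WT arrays were 0.64 apart, more than the 0.46 between the group means (SE 0.28, 95% interval -0.19 to 1.12, adjusted p = 0.427). Without WT replicate 2 the difference was 0.14, and without WT replicate 1 it was 0.78.

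Among the TRIM genes, Trim63 encodes MuRF1, a RING ligase of the sarcomere that marks thick filament proteins. It read 6.16 and 7.80 in WT and 7.27 and 6.15 in dbTg. The lowest value of each group came from a different sex, the WT male and the dbTg female, and these were nearly equal. The difference was -0.27 (SE 0.56, adjusted p = 0.846), with a 95% interval of -1.60 to 1.06 that holds more than doubling in either direction. It turned to 0.55 without WT replicate 2 and to 0.29 without dbTg replicate 2.

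Trim54 encodes MuRF3, a relative of MuRF1 that binds microtubules and the Z-disc. It read 6.84 and 6.80 in WT and 6.41 and 5.93 in dbTg. Both dbTg arrays lay below the WT arrays, which were 0.04 apart, and the difference of -0.65 (SE 0.20, 95% interval -1.13 to -0.18, unadjusted p = 0.0138, adjusted p = 0.146 in limma) did not pass. Without dbTg replicate 2 it was -0.41. A dimmer row of the same gene read 2.24 and 1.87 in WT and 1.88 and 1.64 in dbTg, a difference of -0.29. Trim32, whose loss causes a limb-girdle muscular dystrophy and which marks desmin filaments for disassembly, read 1.42 and 1.59 in WT and 1.48 and 1.51 in dbTg. With a mean of 1.50 it lay just above the filter at 1.48, and its difference was -0.01 (95% interval -0.42 to 0.40). That value took the other sign after median centring (0.02) and after quantile normalization (0.04).

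Cblb encodes a RING ligase that marks the insulin receptor substrate IRS1 in unloaded muscle. It read 4.84 and 5.48 in WT and 5.37 and 5.13 in dbTg, with both dbTg arrays between the WT arrays. The difference was 0.09 (SE 0.25, 95% interval -0.50 to 0.68, adjusted p = 0.892). It was -0.22 without WT replicate 1, -0.03 without dbTg replicate 1 and -0.01 after quantile normalization.

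**Figure D2:**
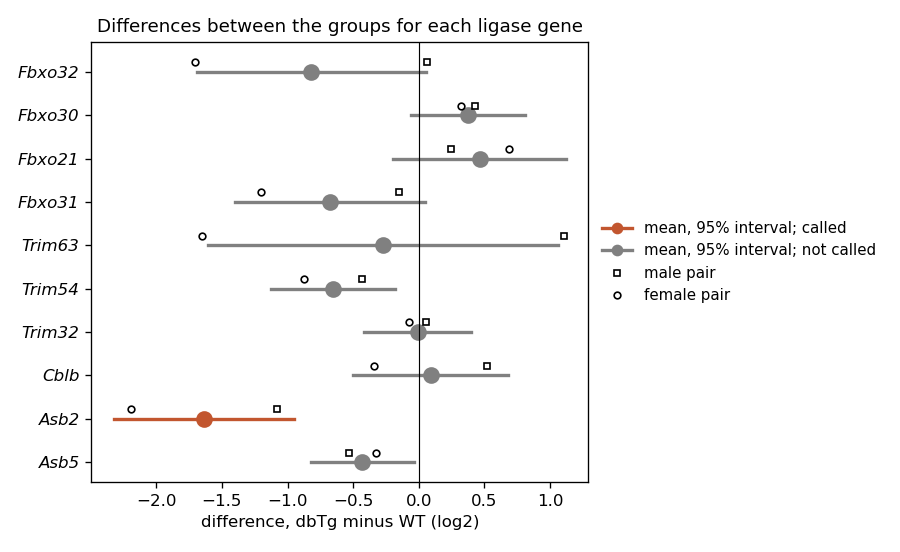
Difference of each ligase gene between dbTg and WT on the log2 scale, with filled circles for the difference of the group means, lines for the limma 95% interval, open squares for the male pair and open circles for the female pair. Asb2 at -1.64 is the gene called, and the male and female pairs of Trim63 lie at 1.11 and -1.65.

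Asb2, a substrate receptor of cullin 5 ligases that directs filamins to degradation and limits muscle mass when overexpressed, fell in dbTg muscle. It read 7.79 and 8.00 in WT and 6.71 and 5.80 in dbTg, and the groups were 1.08 apart at their nearest. The level was 7.89 ± 0.15 in WT and 6.26 ± 0.64 in dbTg (SD, n = 2 each), which makes WT 3.11-fold higher (log2 difference -1.64, SE 0.29, 95% interval -2.32 to -0.95, limma adjusted p = 0.0456). The male pair differed by -1.08 and the female pair by -2.19. The call stood close to the threshold and held under 7 of 13 alternatives. Among these 7 were both settings on rows, which use the same values for Asb2, a gene with 1 row. The call also held with either WT array left out, where more of all tested genes were called lower. It was lost with a replicate block, which also separates the sexes (limma adjusted p = 0.0958). Other settings that ended the call were quantile normalization (0.063), no intensity filter (0.0636) and no intensity trend (0.0628). It was also lost without dbTg replicate 1 (difference -2.09) and without dbTg replicate 2 (-1.18), settings that ended nearly all calls over the tested genes. Asb2 is known in a muscle form and a form of blood cells, and the exons its probes read are not stated in the sources used here. The summed leukocyte markers were higher and the summed endothelial markers lower in dbTg, and the part of either in the level of Asb2 was not tested.

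Asb5, a relative expressed in skeletal muscle, read 8.29 and 7.94 in WT and 7.76 and 7.62 in dbTg. The groups did not overlap, with 0.18 between the nearest arrays. The difference was -0.43 (SE 0.17, 95% interval -0.82 to -0.04, unadjusted p = 0.0367, adjusted p = 0.232 in limma), and -0.26 without WT replicate 1.

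The rest of the ASB family had mostly negative differences that did not pass the test. Of 14 further ASB genes tested, 0 were called in limma, and 4 were lower and 0 higher before adjustment, at p below 0.05. Over all tested genes 4.64% were lower and 14.0% higher before adjustment. Of the 14 ASB genes 13 had negative differences, 12 after median centring and 13 after quantile normalization. Their median was -0.34, -0.31 after median centring and -0.40 after quantile normalization, against 0.089, 0.12 and -0.0016 over all tested genes. Before rescaling, 8055 of all 13308 tested genes had positive differences. Both dbTg arrays lay below both WT arrays for 8 of the 14 and above for 1, where 16.3% and 33.7% of all tested genes did so. Asb10 read 4.05 and 3.25 in WT and 2.27 and 2.61 in dbTg (-1.21, adjusted p = 0.107). It was called without WT replicate 2 (adjusted p = 0.0147, in a range of 0.0147 to 0.448 over 12 alternatives). Asb4 read 3.17 and 3.47 in WT and 2.71 and 2.21 in dbTg (-0.86, adjusted p = 0.145). Asb9 and Asb17 lay under the filter.

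**Figure D3:**
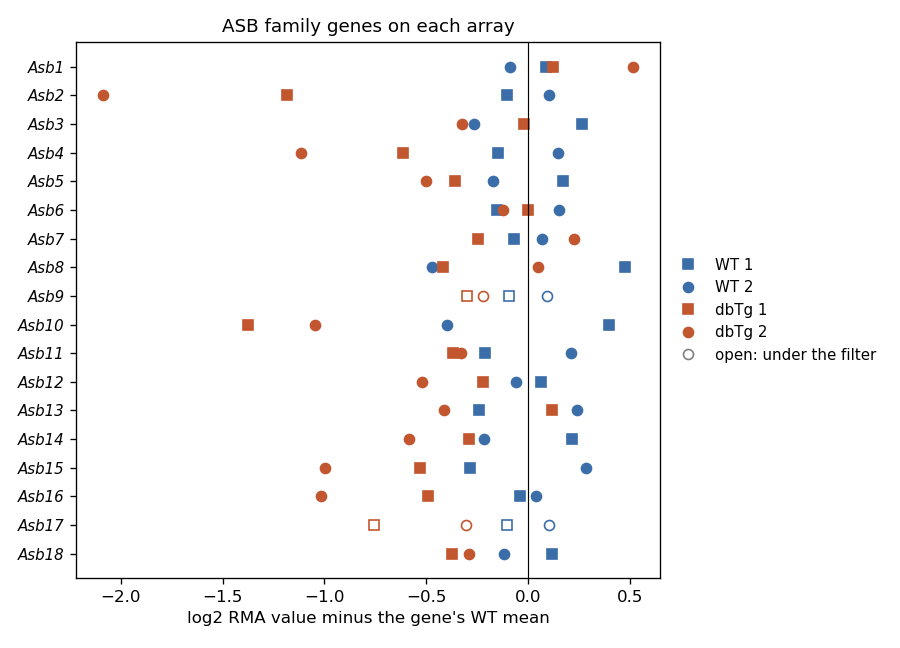
Log2 RMA value of each ASB family gene minus its WT mean, on every array, with squares for replicate 1, circles for replicate 2 and open symbols for the genes under the filter. The dbTg arrays (red) of Asb2, Asb10 and Asb4 lie below the WT arrays (blue) of the same gene.

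The 2 classical atrophy genes varied more between mice of 1 genotype than most genes did. The 2 WT arrays differed by 1.64 for Trim63, a gap that 0.744% of all tested genes reached, and by 0.75 for Fbxo32 (8.48%). The 2 dbTg arrays differed by 1.12 for Trim63 (0.706% of tested genes reached that) and by 1.02 for Fbxo32 (1.01%). The median gap of all tested genes was 0.25 in WT and 0.20 in dbTg. WT replicate 2 was higher than WT replicate 1 for both genes, and dbTg replicate 2 was lower than dbTg replicate 1. For Asb2 the WT gap was ordinary at 0.21 (57.4% of tested genes reached it) and the dbTg gap of 0.90 was wide (1.53%).

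Some genes of the insulin, FoxO and glucocorticoid pathways also differed between the WT mice. Of 17 insulin, FoxO and glucocorticoid regulators, 6 had WT arrays at least 1 apart on the log2 scale, where 3.68% of all tested genes did so. WT replicate 2 was the higher for 5 of them and the lower for Igf1. Fkbp5, a glucocorticoid-induced chaperone gene, read 3.44 and 5.21 in WT and 4.35 and 3.79 in dbTg, with WT replicate 2 highest and dbTg replicate 1 next, as for Trim63. Klf15, a glucocorticoid-induced transcription factor gene that acts on Trim63 and Fbxo32, read 2.77 and 4.93 in WT and 4.06 and 3.67 in dbTg, again with WT replicate 2 highest and WT replicate 1 lowest. Foxo1 read 4.81 and 6.13 in WT and 5.24 and 5.42 in dbTg, so the dbTg mice did not follow the order of Trim63. Nor did they for Foxo3, which read 2.06 and 3.12 in WT and 2.82 and 3.08 in dbTg. Ddit4, a stress-induced inhibitor of mTORC1, read 1.92 and 3.58 in WT and 1.71 and 1.68 in dbTg. Igf1, a growth factor gene upstream of Akt, lay the other way, at 4.73 and 3.18 in WT and 4.34 and 4.41 in dbTg. These 6 genes and the gap of 1 were picked after the values were seen. Of the 17 regulators, 0 were called in limma (1 higher and 0 lower before adjustment, at p below 0.05, median -0.10). The slow myosin gene Myh7 read 2.30 and 6.29 in WT and 1.62 and 5.33 in dbTg, higher in replicate 2 of both groups. The part of sex, age and the sampled piece of muscle in these gaps was not tested, and with 1 array of each sex per group they cannot be told apart.

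**Figure D4:**
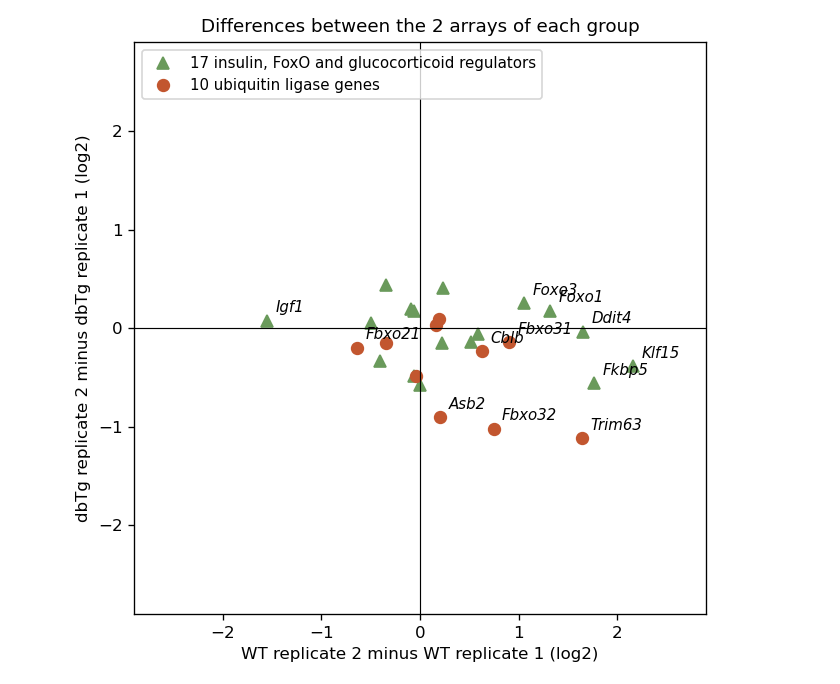
Replicate 2 minus replicate 1 on the log2 scale in WT (horizontal) and dbTg (vertical), for the 10 ligase genes (circles) and the 17 insulin, FoxO and glucocorticoid regulators (triangles). Trim63 lies at 1.64 and -1.12 and Fbxo32 at 0.75 and -1.02, on the lower right. Other genes of both sets also lie there, among them Asb2, Cblb, Fbxo31, Fkbp5, Klf15 and Ddit4.

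In 4 lists of other ubiquitin pathway genes, 2 of 65 tested genes were called higher (3.08%) and 0 lower. Among all tested genes 2.01% were called higher and 0.203% lower, and before adjustment 14.0% were higher and 4.64% lower. Of 22 other muscle ligase genes, 1 rose and 0 fell (3 higher and 2 lower before adjustment, at p below 0.05, median 0.12, and -0.08 after quantile normalization). The gene was Mdm2, which encodes the ligase of p53. It read 5.46 and 5.49 in WT and 6.35 and 6.36 in dbTg (0.88, adjusted p = 0.0465). Of 16 cullin core and neddylation genes 0 were called or passed unadjusted (median 0.01). Uba3 of the NEDD8-activating enzyme differed by 0.35 (adjusted p = 0.361) and the cullin exchange factor gene Cand1 by 0.44 (adjusted p = 0.365). Of 14 ubiquitin, E1 and E2 genes 0 were called in limma (1 higher and 2 lower unadjusted, median 0.06). The E2 gene Ube2r2 differed by -0.64 (adjusted p = 0.0757) and Ube2n by -0.64 (adjusted p = 0.219). Of 13 deubiquitinase genes 1 rose and 0 fell (2 higher and 1 lower unadjusted, median 0.17). It was Uchl1, a ubiquitin hydrolase known from neurons, at 2.23 and 2.10 in WT and 3.27 and 3.62 in dbTg (1.27, adjusted p = 0.0486). The mean of its rows gave 0.65 (adjusted p = 0.151).

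Among signals known to act on these ligases, Mstn fell. Mstn encodes myostatin, a growth inhibitor that works through SMAD2 and SMAD3. It read 7.67 and 7.55 in WT and 6.03 and 5.35 in dbTg (-1.92, adjusted p = 0.0187), and it was the 1 of 15 myostatin, activin and BMP regulators called (2 higher and 1 lower unadjusted, median -0.05). Of the insulin and FoxO regulators, Akt1 differed by 0.55 (adjusted p = 0.198) and the insulin receptor gene Insr by -0.48 (adjusted p = 0.303). Of 9 tested denervation and inflammatory regulators 2 rose and 0 fell (5 higher and 1 lower unadjusted, median 0.83). For all tested genes the shares were 2.01% called higher and 0.203% lower, and 14.0% higher and 4.64% lower unadjusted. Runx1, a transcription factor gene that denervation induces, read 2.43 and 2.17 in WT and 5.06 and 5.10 in dbTg (2.78, adjusted p = 0.00322). Tnfrsf12a, the TWEAK receptor gene linked to wasting, read 2.78 and 2.45 in WT and 5.12 and 5.27 in dbTg (2.58, adjusted p = 0.00479). Asb2 and Mstn thus fell, and Runx1 and Tnfrsf12a rose, in the same 2 dbTg mice in which Fbxo32 and Trim63 did not pass the test.

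Of 14 autophagy genes linked to FoxO 0 were called in limma (3 higher and 2 lower unadjusted, median 0.03). Unadjusted, 14.0% of all tested genes were higher and 4.64% lower, and 2.01% were called higher and 0.203% lower. The lysosomal membrane gene Lamp2 differed by 0.75 (adjusted p = 0.0837) and the autophagy kinase gene Ulk1 by -1.10 (adjusted p = 0.0957). Lamp2 was called without WT replicate 2 (adjusted p = 0.0499, in a range of 0.0499 to 0.506 over 12 alternatives). Of 17 tested genes of reported substrates and partners 1 rose and 0 fell (3 higher and 0 lower unadjusted, median 0.09). That gene was Flnc, the muscle filamin and a relative of the filamins that ASB2 targets. It read 7.02 and 7.07 in WT and 7.94 and 7.82 in dbTg (0.83, adjusted p = 0.0428). Like Asb2, the called genes Mdm2, Uchl1, Mstn, Runx1, Tnfrsf12a and Flnc lost their calls with either dbTg array left out. Their differences kept their sign. Nearly all calls over the tested genes were lost in the same way, with 1 dbTg array left, so this loss is not particular to these genes. Mdm2, Uchl1 and Flnc also lost their calls after quantile normalization (limma adjusted p = 0.0754, 0.0888 and 0.0559). The same held without an intensity filter (0.0741, 0.0635 and 0.0586), and for Mdm2 and Flnc without the intensity trend (0.0713 and 0.0818). Quantile normalization also turned the small medians of the cullin (-0.05), autophagy (-0.05) and substrate (-0.02) lists to the other sign. Median marker differences, dbTg minus WT, were 1.85 for leukocytes, 0.68 for fibroblasts, 1.31 for adipocytes, 0.45 for satellite cells and -0.50 for endothelial cells. The part of any of these cells in the calls was not tested.

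**Figure D5:**
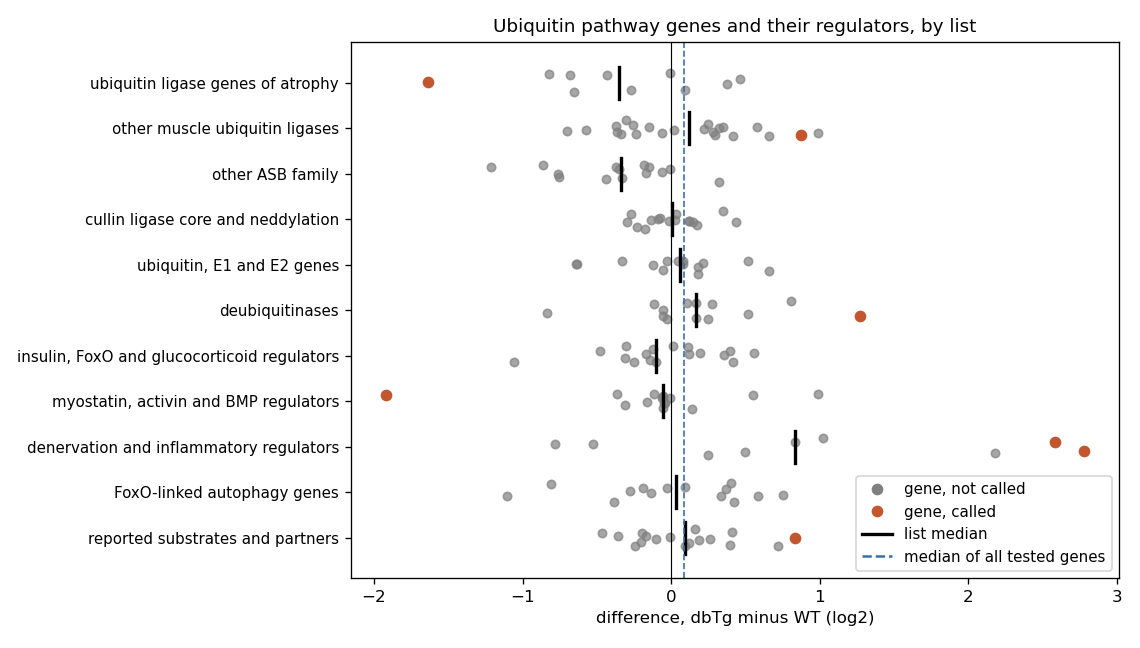
Difference between dbTg and WT on the log2 scale for every tested gene (points, called genes in red) of the 10 ligase genes and 10 related lists, with black bars for list medians and a dashed line for the median of all tested genes at 0.089. The ligase genes have a median of -0.35, and the denervation and inflammatory regulators one of 0.83.

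The genes most like 3 of the ligase genes across the 4 arrays were found by the distance between profiles after each gene's mean was removed, which describes these 4 arrays. Nearest to Asb2 were Mstn (distance 0.40) and Mrln (0.45), the gene of myoregulin, a small inhibitor of the calcium pump. Mrln read 5.69 and 5.35 in WT and 4.41 and 3.19 in dbTg. Nearest to Trim63 were Gm6194 (0.17), a predicted gene with a mean of 1.63, near the filter at 1.48, and Arrdc2 (0.32). Arrdc2, an arrestin domain gene, read 4.17 and 5.99 in WT and 5.13 and 4.43 in dbTg. Nearest to Fbxo32 were Leng9 (0.06) and Mir540 (0.24), with means near the lower end of the tested range.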

How the data were processed

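Total RNA of the quadriceps of 4 mice was hybridised to 1 Affymetrix array each. The authors deposited RMA values on the log2 scale, made in Affymetrix Expression Console per the labels. RMA normalizes between arrays, which removes differences in total signal. The software version, the genome build and calls of presence are not stated in the sources used here.

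Of 41345 rows, 23521 were paired with 1 symbol, 1814 with several and 16010 with none. Genes with a mean at or above the 40th percentile (1.48) were tested with limma 3.58.1 in R 4.3.3 (lmFit, eBayes with trend, 2 residual and 4.76 prior degrees of freedom), with two-sided p-values adjusted by Benjamini-Hochberg over 13308 genes. Intervals are limma's 95% intervals, and summed marker levels add the values after undoing the log2. A permutation test of 2 against 2 arrays cannot go below 0.333. The fit was tested on simulated data.

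The ligase genes and all lists were chosen with earlier results of these data known. Asb2, Mstn, the other called genes of the lists and the counts per list are therefore not independent findings. Genes named from a list were up to 4 called ones, or the 2 with the smallest p. Those for likeness were the 2 nearest to Fbxo32, Trim63 and Asb2. Alternatives tried were each array left out, a replicate block, centring on medians, quantile normalization, no filter or one at the 60th percentile, the mean of a gene's rows, each row on its own, and eBayes without trend or robust. A comparison of the ligases' protein sequences is not given here. The markers of fibroblasts (7 tested, median 0.68), adipocytes (5, 1.31), Schwann cells (2, 0.26) and satellite cells (4, 0.45) had 0, 2, 0 and 1 called higher and 0 lower, and the red blood cell marker Bpgm differed by -0.30.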

Additional observations from a re-analysis of the deposited data

Results flagged for a closer look

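For 4 of the 10 ligase genes the male pair (dbTg replicate 1 minus WT replicate 1) and the female pair (replicate 2) differed in sign. The same held for 4878 of all 13308 tested genes (36.7%), a share near that of the ligase genes. For Trim63 the pairs lay at 1.11 and -1.65, 2.76 apart on the log2 scale. For Fbxo32 they lay at 0.06 and -1.70, 1.77 apart. For Cblb they lay at 0.52 and -0.34, 0.86 apart, and for Trim32 at 0.06 and -0.08, 0.13 apart. The difference between the pairs was not tested, since each sex has 1 array per group, and WT replicate 1 was also older than the others.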

How the results depend on the processing

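Over 129 alternative values for the 10 ligase genes, 113 kept their sign and their side of the threshold. The replicate block, the filters and both eBayes settings leave a gene's difference unchanged, so there the sign could not turn. The settings on rows use the same values for every ligase gene but Trim54. For genes not called in the main analysis, keeping their side means that they stayed uncalled. Asb2 lost its call with the replicate block (-1.64, adjusted p = 0.0958), as did Mdm2, Uchl1 and Flnc (0.1, 0.105 and 0.0958). Asb2 also lost it after quantile normalization (-1.66), without a filter and without the trend (-1.64 each), and ranged from -2.09 to -1.18 with 1 array left out. The count of ligase genes called lower was therefore 0 under each of these, and 0 to 2 with 1 array left out. Fbxo31 ranged from -1.13 to -0.22, Trim63 from -1.09 to 0.55, Cblb from -0.22 to 0.41 and Trim32 from -0.092 to 0.074 with 1 array left out. Quantile normalization turned Cblb to -0.011 and Trim32 to 0.038, and median centring Trim32 to 0.023. Over all tested genes, 267 were called higher and 27 lower. The replicate block gave 63 and 2, quantile normalization 120 and 7, no filter 165 and 7, and leaving out 1 array 4 to 610 higher and 0 to 156 lower. The filter at the 60th percentile gave 44 lower and eBayes without trend 14 lower. Without a filter more genes are tested, and without an array fewer arrays. The cause of the other shifts was not tested. The labels do not say that a replicate number marks shared animals or batches, and the differences between replicates of the groups correlated at 0.05 across genes, so the number is not read as a pairing. The number does mark sex in each group, so the replicate block is also an adjustment for sex. With 2 arrays a group, the 95% interval of Trim63 spanned -1.60 to 1.06.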

Other observations

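A cut at the gaps of Fbxo32 was used to look for genes with its order of mice. Genes with WT replicate 2 above WT replicate 1, and dbTg replicate 1 above dbTg replicate 2, each by at least the gaps of Fbxo32, numbered 11 of 13308 (0.0827%). The cut keeps the count small, since 8.48% of tested genes reached the WT gap and 1.01% the dbTg gap, in either direction. Leng9 and Arrdc2, named above as near in profile, fell short of the dbTg gap. The count was made after the values were seen, and Fbxo32 is among the 11 by construction. Trim63 was another. Pdk4, a kinase gene of fasting muscle that restrains pyruvate use and a known FoxO target, read 8.23 and 9.38 in WT and 8.91 and 7.78 in dbTg. Ppp1r3c, which encodes a glycogen-targeting subunit of protein phosphatase 1, read 7.27 and 9.41 in WT and 8.14 and 6.36 in dbTg. Lrrc30 read 5.36 and 7.43 in WT and 6.85 and 5.19 in dbTg. The others were Acvr1b, a receptor gene for activin and myostatin, and Ankrd9, H6pd, Gm6194, Mir540 and Pisd-ps3.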
